A study of Lupinus micranthus with 18 samples.

Results

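The comparison described here asks whether leaves of Lupinus micranthus seedlings from 2 seed origins changed their messenger RNA differently after 72 h of osmotic drought. It is the change in Iceland seedlings, 72 h minus untreated, minus the same change in America seedlings. It rests on 12 of the 18 libraries of the series, chosen by their labels alone: America untreated, America after 72 h, Iceland untreated and Iceland after 72 h, with 3 libraries each. The remaining 6 libraries, taken after 24 h, entered the fit to estimate the spread, and their levels are given beside the others where stated. Drought was imposed with polyethylene glycol (PEG). All leaves came from seedlings grown from seed named only by its origin. The labels give no population, plant age or number of plants, and no hours for the untreated leaves, so a treated plant's extra time cannot be told apart from PEG. Whether the replicates of a group came from separate plants is not stated, so a p-value here refers to the spread among libraries, which may be technical.

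PEG is a large, inert polymer that binds water around the root without entering the cells, so that the plant experiences a falling water potential as it would in drying soil. Plants commonly answer with abscisic acid signalling, closure of stomata, accumulation of protective solutes and proteins, and a lower investment in photosynthesis and growth. When plants of different origin differ in such a response, the difference appears in a two-way design as an interaction of origin and treatment. A gene that is higher in one origin by the same factor with and without treatment does not contribute to it. A gene that rises in one origin and not in the other does.

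Messenger RNA was counted for unigenes, the transcript units assembled for a species that has no reference genome in these sources. The table pairs unigene identifiers with no names, functions or sequences, so no pathway can be named and the leaf origin could not be checked against marker genes. Totals of the 12 libraries ranged from 9768347 to 12605500 counts. A count of 0 in a single library allows up to 3 counts, which is 0.222 to 0.351 CPM (counts scaled to library size with TMM factors), and such limits cover counting error only. Of 81470 unigenes 30895 passed a filter on low counts and were tested. In whole leaves, fewer cells carrying a transcript and less of it per cell cannot be told apart. Untreated Iceland replicate 3 stood apart: its log2 CPM had a mean correlation across unigenes of 0.902 with the remaining libraries of its group and of 0.842 with those of Iceland leaves after 72 h. The corresponding values were 0.935 and 0.784 for replicate 1 and 0.929 and 0.770 for replicate 2. Its share in the results was examined by leaving it out.

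The response to 72 h PEG differed between the origins in 214 unigenes, 0.693% of those tested (edgeR quasi-likelihood test, Benjamini-Hochberg adjusted p under 0.05). The Iceland response was more positive in 128 (0.414%) and more negative in 86 (0.278%). Over all tested unigenes the median size of the difference was 0.49 on the log2 scale. In the 214 it was 3.18, with quartiles of 2.04 and 4.09, and 161 of the 214 reached 4-fold. These sizes come from the values that chose the 214, so nothing is read from them. With the 9 unigenes that had 0 counts in a whole group set to 3 counts over that group, the median of the 214 was 3.17. The standard error of the difference was derived from its size and the F statistic of the test. Its median over all tested unigenes was 0.55 on the log2 scale. That median fell from 1.25 in the least abundant of 4 equal classes to 0.26 in the most abundant, so small differences were not detectable at this depth and replication. At an unadjusted p under 0.05 the count was 4979, or 16.1% of those tested. Unigenes that did not pass are not shown to respond alike.

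The count depended strongly on the method and on single libraries. A fit to the 12 libraries of the 4 groups alone called 41 unigenes, 36 of them among the 214, and a fit with the replicate number as a block called 116. The DESeq2 Wald test called 1382 unigenes (4.47%), which included all 214, while limma-voom called 15 (0.0486%), of which 14 were among the 214. Leaving out America 72 h replicates 1, 2 and 3 in turn gave 12, 20 and 24 calls. Leaving out untreated America replicates 1, 2 and 3 gave 538, 6 and 240 calls. For Iceland the counts were 89, 5 and 280 without 72 h replicates 1, 2 and 3, and 62, 8 and 737 without untreated replicates 1, 2 and 3. The share of calls more positive in Iceland ranged from 37.5% of 8 without untreated Iceland replicate 2 to 84.3% of 89 without Iceland 72 h replicate 1. It was 43.8% of 240 without untreated America replicate 3. The excess of more positive calls thus depended on single libraries. The sign of a unigene's difference was steadier than its call. All 214 kept the sign of the difference in all 12 refits, and 212 kept an unadjusted p under 0.05 in each, but both are values that chose these unigenes. The exceptions were Unigene0050091 and Unigene0067652, singled out here after their values were seen. Unigene0067652 stood at 0, 0.104 and 67.1 CPM in the 3 untreated America libraries and at 107, 137 and 13.3 CPM in the 72 h Iceland libraries. Unigene0050091 stood at 0, 0 and 33.0 CPM and at 53.6, 88.9 and 6.55 CPM in the same libraries. Their high untreated America level is that of replicate 3 alone. Only 4 of the 214 passed in every refit and 42 in at least 6, while 94 passed in at most 3.

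**Figure D1:**
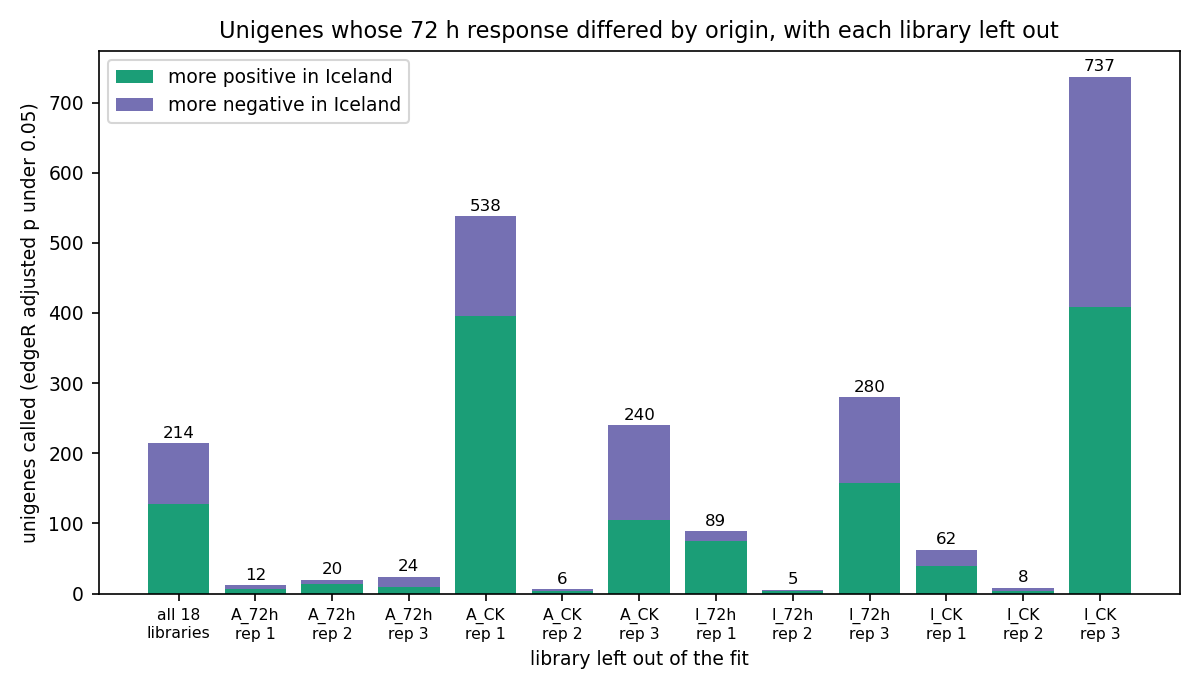
Number of unigenes with a different 72 h response (vertical axis, edgeR adjusted p under 0.05) with all 18 libraries and with each of the 12 libraries left out (horizontal axis; A = America, I = Iceland, CK = untreated), divided by the direction of the Iceland response relative to America. The count is 214 with all libraries, lies between 5 and 89 without 8 of them, is 240, 280 and 538 without 3 others, and rises to 737 without untreated Iceland replicate 3.

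The 214 unigenes were divided by how they moved within each origin. A total of 96 passed in Iceland alone, 55 passed in both origins in opposite directions, 36 passed in America alone and 27 passed in both in the same direction. Among all tested unigenes 18.5%, 0.385%, 8.51% and 27.5% fell into these classes, and the remaining 45.1% passed in neither, where none of the 214 lay. The tested difference itself favours the first 3 classes, so nothing is read from the larger shares. A miss in one origin does not show that the unigene did not respond there.

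**Figure D2:**
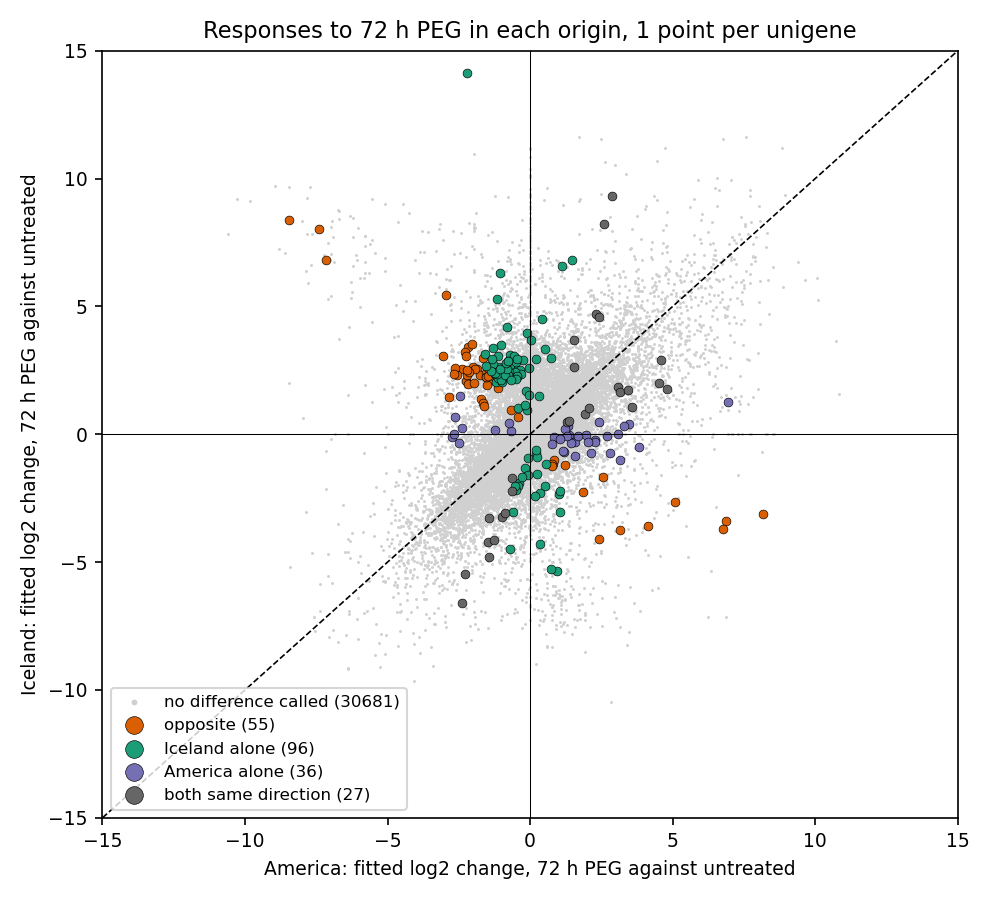
Fitted log2 change after 72 h PEG in America (horizontal axis) against that in Iceland (vertical axis), 1 point per tested unigene, with the 214 unigenes of different response coloured by class and the line of equal response dashed. The 55 opposite unigenes lie to the upper left and lower right, and the 96 that passed in Iceland alone lie along the vertical axis, most of them above 0.

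The largest class was made of unigenes that rose in Iceland without passing in America, 72 in number. Over all tested unigenes 46.4% passed in Iceland at 72 h (23.4% rose and 23% fell) and 36.4% in America (18.4% rose and 18% fell). The median log2 change of the 72 was 2.56 in Iceland and -0.77 in America. The median unigene went from 1.39 CPM untreated to 9.76 CPM after 72 h in Iceland, and from 1.67 to 0.958 CPM in America. In America 64 of the 72 had a negative fitted change, and 18 of the 72 had an unadjusted p under 0.05 there. Over all tested unigenes 44.7% had an unadjusted p under 0.05 in America. A tested difference above 0 favours negative America changes, and the class leaves out unigenes that passed in America, so nothing is read from either count. The America side of the contrast was uneven. The class median of log2 CPM, centred per unigene, was -1.17, 0.03 and -0.41 in untreated America replicates 1, 2 and 3 and between -1.23 and -0.93 in the 72 h libraries. Replicate 1 therefore overlapped the 72 h level while replicate 2 stood above it. In untreated Iceland the same median was between -0.73 and -0.65 in all 3 libraries. Without untreated America replicate 1 the class held 268 unigenes and without replicate 2 it held 1, both in either direction.

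Unigene0015286 was named by rule from this class, as the one that kept its call in the most refits. It stood at 4.68, 3.88 and 3.31 CPM in untreated Iceland leaves and at 18.4, 24.9 and 22.1 CPM after 72 h. In America it stood at 2.93, 6.03 and 3.36 CPM untreated and at 1.82, 3.03 and 2.83 CPM after 72 h. The 3 treated Iceland libraries were above every other library of the comparison, and the untreated origins overlapped. The change was 2.46 ± 0.27 (log2, SE) in Iceland and -0.68 ± 0.28 in America (edgeR adjusted p = 6.73e-06 and 0.0688). The difference of 3.14 ± 0.39 passed (edgeR adjusted p = 0.00605), and each of the 12 refits called it, with adjusted p between 0.00223 and 0.0320. The 24 h libraries gave 17.2, 17.1 and 14.6 CPM in Iceland and 2.43, 2.92 and 3.46 CPM in America.

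In the other direction 24 unigenes fell in Iceland without passing in America, with a median log2 change of -2.02 in Iceland and 0.21 in America. They were more abundant, at a median of 31.4 CPM in untreated Iceland and 19.2 CPM in untreated America leaves, and at 7.06 and 18.3 CPM after 72 h. Unigene0073070 stood at 507, 663 and 699 CPM in untreated Iceland leaves and at 79.1, 94.1 and 56.5 CPM after 72 h. In America it stood at 127, 205 and 191 CPM untreated and at 165, 104 and 73.4 CPM after 72 h. The untreated Iceland libraries were the highest of the 12, and the origins overlapped after 72 h. The Iceland change was -3.02 ± 0.29 and the America change -0.61 ± 0.27 (log2, SE; edgeR adjusted p = 2.14e-06 and 0.0946). The difference was -2.42 ± 0.39 (edgeR adjusted p = 0.0191). It missed the threshold without America 72 h replicate 1, untreated America replicate 2, Iceland 72 h replicate 2 or untreated Iceland replicate 2, with adjusted p up to 0.0593.

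Opposite movement was called in 55 unigenes. Of these, 41 rose in Iceland and fell in America, with median log2 changes of 2.37 and -1.97. Their median level went from 0.950 to 5.03 CPM in Iceland and from 1.84 to 0.342 CPM in America. The class median of centred log2 CPM in untreated America replicates 1, 2 and 3 was -0.72, 0.40 and 0.01, against -1.40 to -1.33 in the 72 h America libraries. The median level of 0.342 CPM in America after 72 h lies near the level that 3 counts give in 1 library.

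Unigene0002739 was named by the same rule. It stood at 13.0, 19.8 and 16.6 CPM in untreated America leaves and at 4.02, 2.86 and 3.87 CPM after 72 h. In Iceland it stood at 1.42, 2.58 and 2.40 CPM untreated and at 14.6, 31.6 and 22.8 CPM after 72 h. The 2 groups of each origin did not overlap, and the order of the origins was reversed between untreated and treated leaves. It fell in America by 2.19 on the log2 scale (SE 0.42, edgeR adjusted p = 0.000735) and rose in Iceland by 3.42 (SE 0.45, edgeR adjusted p = 2.74e-05). The difference of 5.62 ± 0.61 (edgeR adjusted p = 0.00348) had the smallest p of all tested unigenes, and each of the 12 refits called it, with adjusted p up to 0.0184.

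The other 14 fell in Iceland and rose in America, with median log2 changes of -2.46 and 2.48. Their median level went from 15.6 to 2.80 CPM in Iceland and from 2.12 to 10.3 CPM in America. Unigene0003190 stood at 14.1, 15.7 and 11.3 CPM in untreated Iceland leaves and at 4.06, 4.13 and 4.81 CPM after 72 h. In America it stood at 2.84, 1.45 and 3.04 CPM untreated and at 25.0, 9.10 and 8.85 CPM after 72 h. Treated and untreated libraries did not overlap in either origin, although America 72 h replicate 1 was well above the other 2. The changes were -1.66 ± 0.37 in Iceland and 2.54 ± 0.39 in America (log2, SE; edgeR adjusted p = 0.00196 and 0.000118). The difference of -4.20 ± 0.53 (edgeR adjusted p = 0.00643) passed in all 12 refits, with adjusted p up to 0.0308.

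Movement called in America alone was found in 36 unigenes, of which 27 rose and 9 fell. The 27 had a median log2 change of 1.95 in America and -0.19 in Iceland, and their median level went from 10.3 to 35.4 CPM in America and from 14.4 to 13.3 CPM in Iceland. Unigene0050901 stood at 20.8, 16.8 and 23.1 CPM in untreated America leaves and at 69.5, 64.6 and 59.7 CPM after 72 h. In Iceland it stood at 47.1, 42.8 and 38.9 CPM untreated and at 44.2, 37.7 and 39.9 CPM after 72 h. The 4 groups thus formed 3 levels, with both Iceland groups overlapping each other between the 2 America groups. The America change was 1.67 ± 0.15 and the Iceland change -0.08 ± 0.15 (log2, SE; edgeR adjusted p = 1.22e-06 and 0.677). The difference of -1.75 ± 0.21 (edgeR adjusted p = 0.00514) passed in all 12 refits, with adjusted p up to 0.0304.

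The 9 that fell had a median log2 change of -2.46 in America and 0.18 in Iceland. Unigene0065711 stood at 24.5, 18.7 and 16.0 CPM in untreated America leaves and at 1.82, 3.03 and 4.61 CPM after 72 h. In Iceland it stood at 2.14, 1.76 and 2.30 CPM untreated and at 4.31, 3.34 and 2.40 CPM after 72 h. The untreated America libraries were the highest of the 12, and the treated libraries of the origins overlapped. The difference was 3.33 ± 0.53 (log2, SE, edgeR adjusted p = 0.0191). It missed the threshold without America 72 h replicates 1 or 2, untreated America replicate 2, Iceland 72 h replicate 2 or untreated Iceland replicate 2, with adjusted p up to 0.0593.

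A difference in size alone was called in 27 unigenes that moved the same way in both origins. Of the 17 that rose, 6 rose more in Iceland and 11 rose more in America. The 10 that fell all fell more in Iceland. Unigene0032657 stood at 7.42, 7.52 and 7.31 CPM in untreated Iceland leaves and at 45.2, 45.2 and 46.8 CPM after 72 h. In America it stood at 13.2, 14.9 and 13.7 CPM untreated and at 42.3, 39.1 and 40.7 CPM after 72 h. The untreated origins were well apart, while the treated ones lay close. It rose by 2.62 ± 0.13 in Iceland and by 1.55 ± 0.12 in America (log2, SE; edgeR adjusted p = 7.57e-09 and 4.53e-07). The difference of 1.08 ± 0.17 (edgeR adjusted p = 0.0191) missed the threshold without any 1 of the America 72 h libraries, untreated America replicate 2, Iceland 72 h replicate 2 or untreated Iceland replicate 2, with adjusted p up to 0.0621, and by limma-voom (adjusted p = 0.0657).

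Unigene0077436 showed the reverse. It stood at 6.12, 4.47 and 3.36 CPM in untreated America leaves and at 51.1, 52.1 and 48.8 CPM after 72 h. In Iceland it stood at 14.8, 14.2 and 15.7 CPM untreated and at 47.2, 42.4 and 61.3 CPM after 72 h. The origins overlapped after treatment but not before it. It rose by 3.44 ± 0.19 in America and by 1.75 ± 0.18 in Iceland (log2, SE; edgeR adjusted p = 2.05e-08 and 3.05e-06). The difference of -1.69 ± 0.25 (edgeR adjusted p = 0.0182) missed the threshold without America 72 h replicate 1, untreated America replicate 2 or Iceland 72 h replicate 2, with adjusted p up to 0.0593.

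**Figure D3:**
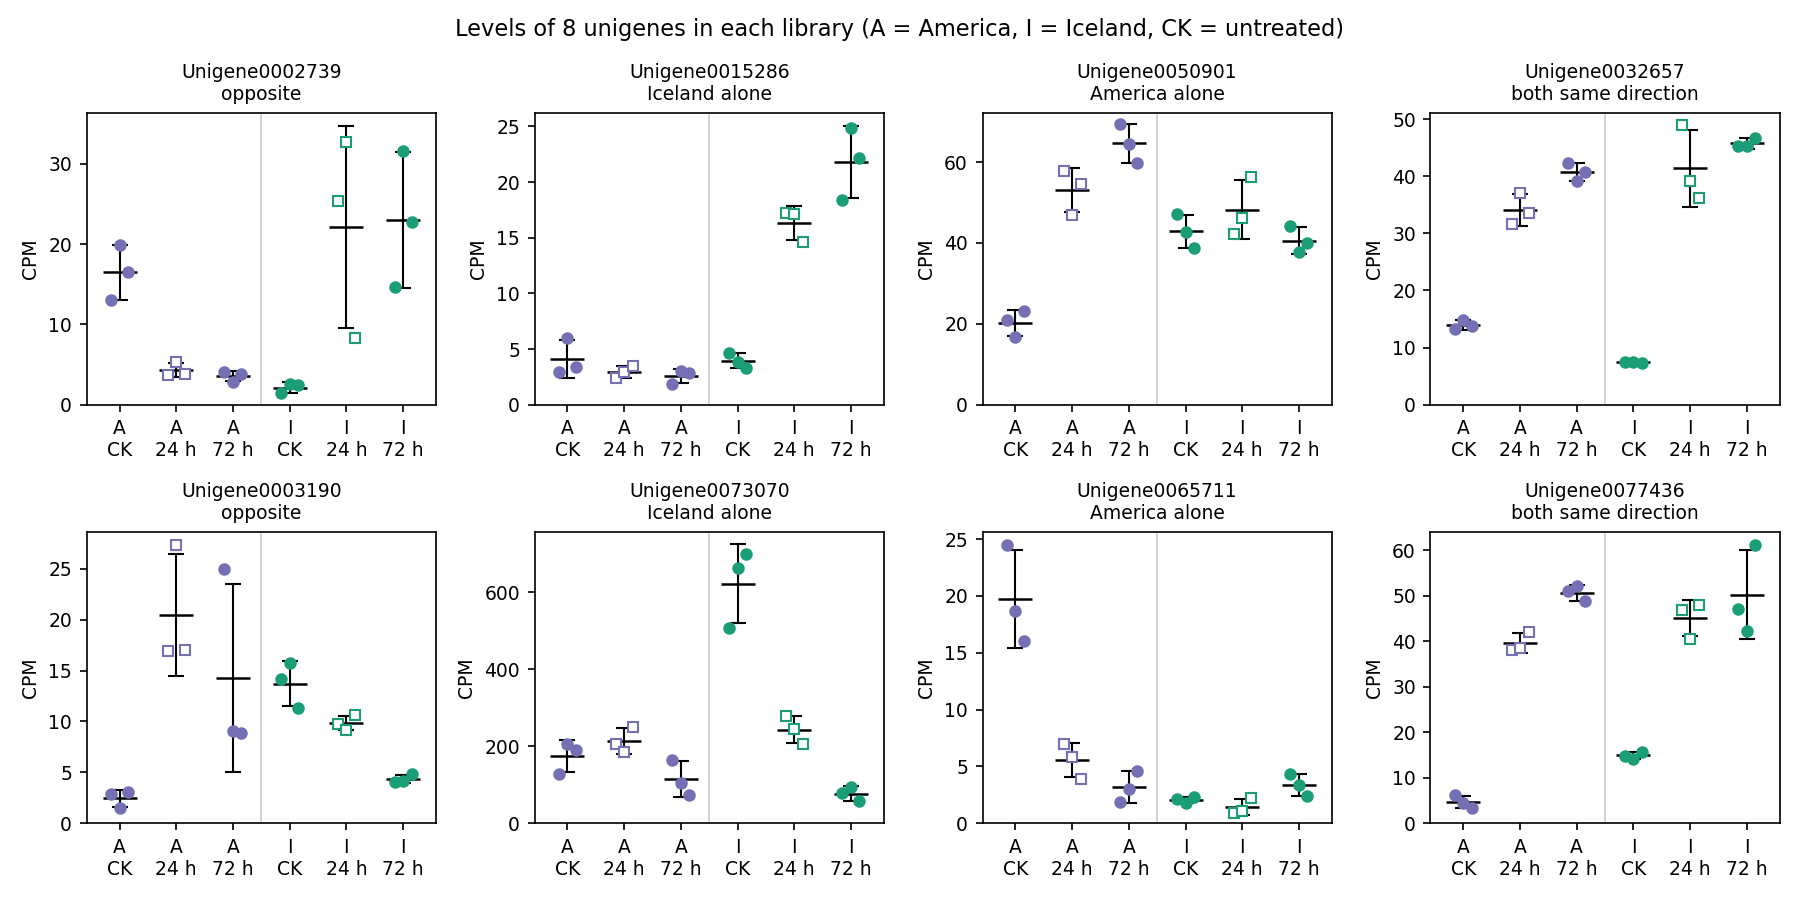
Level in CPM (vertical axes, from 0) of the 8 unigenes named by rule in each of the 18 libraries by group (horizontal axes), 1 column of panels per response class. Points are libraries, open squares are the 24 h libraries, whose levels do not enter the tested difference, and horizontal lines with bars are group means ± SD (n = 3). Unigene0002739 and Unigene0003190 change in opposite directions, and in Unigene0032657 and Unigene0077436 the origins lie apart untreated and close together after 72 h.

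The same difference can be read the other way round, as the gap between origins after 72 h minus the gap before treatment. Over all tested unigenes the origins differed in 5.08% untreated (2.74% higher and 2.34% lower in Iceland) and in 13.2% after 72 h (8.06% higher and 5.15% lower). Of the 214, 80 differed untreated and 147 after 72 h, counts that belong to the tested difference and support nothing by themselves. The origins differed only after 72 h in 133 unigenes, only before treatment in 66, and at both in 14, of which 12 had changed sign. The 2 that kept their sign were Unigene0012458 and Unigene0060216, and Unigene0017231 passed in neither comparison. Unigene0012458 was lower in Iceland at both, at 0.780 ± 0.361 CPM untreated and 5.14 ± 3.24 CPM after 72 h, against 66.3 ± 4.85 and 40.0 ± 5.52 CPM in America (SD, n = 3). Among the 8 unigenes described above and between these 2 conditions, Unigene0015286 differed only after 72 h, Unigene0073070, Unigene0065711, Unigene0032657 and Unigene0077436 differed only untreated, and the other 3 crossed over. At 24 h Unigene0065711 was also lower in Iceland, by a log2 difference of -1.97 ± 0.39 (SE, edgeR adjusted p = 0.00567).

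**Figure D4:**
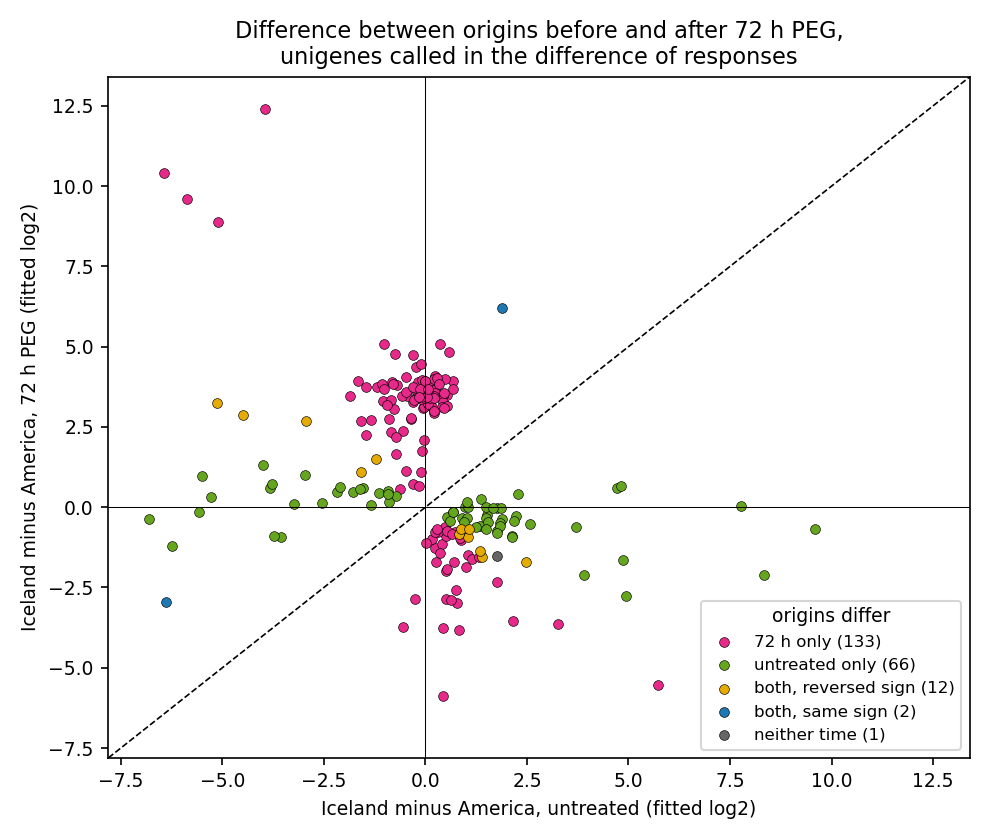
Fitted log2 difference between Iceland and America in untreated leaves (horizontal axis) and after 72 h PEG (vertical axis) for the 214 unigenes, coloured by where the origins differed (edgeR adjusted p under 0.05), with the line of equal difference dashed. A dense group lies near 0 untreated and between 3 and 4 after 72 h, and the 66 unigenes that differed only untreated spread along the horizontal axis on both sides.

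The dense group in that plot belongs to the 97 unigenes that were more positive in Iceland and differed only after 72 h. Their Iceland excess after 72 h had a median of 3.46 on the log2 scale with quartiles of 3.13 and 3.84, and 64 of the 97 lay between 3 and 4. Untreated, the median was -0.14 with quartiles of -0.72 and 0.19. The median unigene of the 97 stood at 5.92, 9.54 and 7.21 CPM in the 72 h Iceland libraries and at 0.531, 0.780 and 0.744 CPM in the 72 h America libraries. In untreated leaves it stood at 1.22, 1.29 and 1.302 CPM in Iceland and at 0.798, 2.18 and 1.47 CPM in America. The Iceland libraries under PEG were all above all others, which the choice of the 97 favours for those at 72 h. Untreated America was the most uneven group. By contrast, the 36 unigenes more negative in Iceland that differed only after 72 h had a median gap of -1.66 with quartiles of -2.87 and -0.99.

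The levels of the 24 h libraries do not enter the tested difference, but their spread entered the fit that called the 214. The fit to the 4 groups alone called 41 unigenes, and only 36 of the 214 were among them. The choice of the 214 may therefore favour unigenes with a small spread at 24 h. The 24 h counts below are descriptions and were not repeated for the 36. At 24 h the origins differed in 13.9% of all tested unigenes, 7.95% higher and 5.96% lower in Iceland, and in 111 of the 214, or 51.9%. Of the 103 unigenes that were higher in Iceland after 72 h, 80 were also called higher at 24 h, none was called lower and 100 had a positive difference. Of the 44 that were lower after 72 h, 14 were called lower at 24 h, none was called higher and 43 had a negative difference. Among the 97 unigenes of the dense group, 77 were called higher at 24 h and the median excess was 2.89 with quartiles of 2.39 and 3.19. Among the 36 more negative unigenes that differed only after 72 h, 12 were called lower at 24 h and the median was -0.60. Of the 24 unigenes lower in Iceland only before treatment, 5 were called lower and 5 higher at 24 h, and of the 42 higher only before treatment, 4 were called higher and 3 lower.

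The difference of responses at 24 h, which shares its untreated libraries with that at 72 h, was called in 0.861% of tested unigenes (0.486% more positive and 0.375% more negative in Iceland). It was called in 79 of the 214 with the same sign as at 72 h and in none with the other sign. Unigene0002739 had a difference of 5.30 ± 0.61 at 24 h beside 5.62 ± 0.61 at 72 h, and Unigene0015286 one of 2.52 ± 0.39 beside 3.14 ± 0.39 (log2, SE). Unigene0065711 had 1.27 ± 0.54 at 24 h, which did not pass (edgeR adjusted p = 0.244), beside 3.33 ± 0.53. A test without untreated libraries asked whether the origins changed differently between 24 h and 72 h. It called 25 of all tested unigenes, 0.0809% (0.0518% more positive and 0.0291% more negative in Iceland), with 3288 at an unadjusted p under 0.05, and 1 of the 214. That unigene, Unigene0048499, stood at 36.6, 55.1 and 21.1 CPM in America after 72 h and between 0.105 and 0.694 CPM in the untreated and 24 h America libraries. In Iceland its highest level was 3.64 CPM. Its difference between the origins in the later change was -5.13 on the log2 scale (edgeR adjusted p = 0.0369). Leaving out single untreated or 72 h libraries gave 0 to 66 calls in this comparison. The lowest was without America 72 h replicate 3 and the highest without Iceland 72 h replicate 3. No 24 h library was left out, so the range does not show how the comparison depends on those. The late rise was seen in all 3 America libraries at 72 h.

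**Figure D5:**
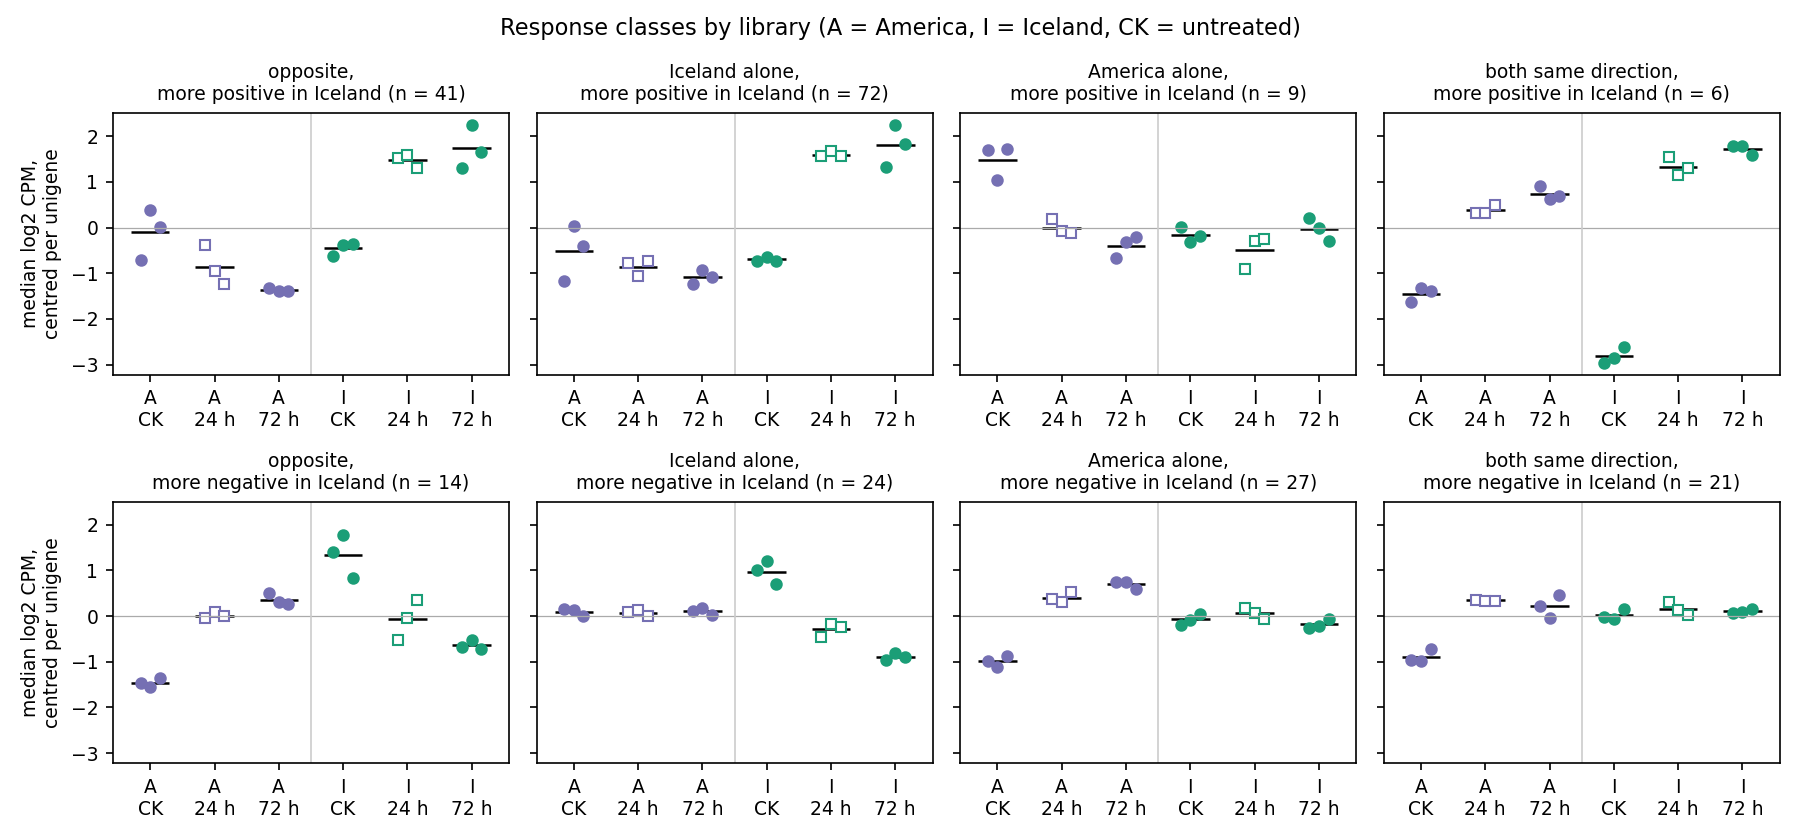
Median over the unigenes of each response class of log2 CPM centred per unigene (vertical axes), in each of the 18 libraries by group (horizontal axes). The upper row holds unigenes more positive in Iceland and the lower row those more negative, points are libraries, open squares are the 24 h libraries, whose levels do not enter the tested difference although their spread enters the fit, and lines are means of 3 libraries. In both large classes of the upper row the Iceland 24 h libraries lie near the Iceland 72 h libraries, and untreated America replicate 1 lies below replicates 2 and 3.

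Libraries of different groups were also compared without a model. The 3 Iceland libraries did not overlap the 3 America libraries after 72 h in 174 of the 214 unigenes and untreated in 106, and at 24 h, outside the tested difference, in 145, or 67.8%. Over all tested unigenes the shares were 38.9%, 21% and 33.4%. Within an origin, untreated and 72 h libraries did not overlap in 182 of the 214 in Iceland and in 125 in America, beside 53.9% and 50.4% of all tested unigenes. All but the 24 h share belong to the tested difference. The spread of the 24 h libraries entered the fit that chose the 214, so that share is not independent of the choice either.

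The called unigenes were placed by abundance. None of the 20 most abundant unigenes by mean share of counts was called by edgeR, and 1 of the 200 most abundant was, counts too small to set apart from the 0.693% called over all tested unigenes. That one, Unigene0077626, had 1051 ± 191 CPM in untreated America and 918 ± 207 CPM after 72 h, against 556 ± 30.8 and 1224 ± 131 CPM in Iceland (SD, n = 3). Its difference was 1.33 ± 0.28 (log2, SE, edgeR adjusted p = 0.0477), close to the threshold. By class of mean abundance, 0.337%, 0.88%, 0.764% and 0.79% of unigenes were called, from the least to the most abundant. The length implied by counts and FPKM had a median of 1501 bases in the 214 and 1362 bases in all tested unigenes.

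Unigenes that answered PEG in both origins were followed as a list. Among the 3141 unigenes that rose in both origins at 24 h, the median log2 change at 72 h was 1.29 in America and 1.25 in Iceland, and among the 3601 that fell it was -1.43 and -1.52. These lists were chosen with the same untreated libraries. The mean log2 CPM of the first list minus that of the second was -1.80 ± 0.19 in untreated America libraries and 1.42 ± 0.21 after 72 h (SD, n = 3). In Iceland it was 1.73 ± 0.08 after 72 h, and -1.97, -2.01 and -0.95 in untreated replicates 1, 2 and 3. Untreated Iceland replicate 3 thus lay nearer to the treated libraries than any other untreated one. The change was 3.22 in America and 3.37 in Iceland, a difference of 0.15, which was 0.50 without that library and -0.0143 or -0.0353 without untreated Iceland replicate 1 or 2.

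Measures of whole libraries gave differences that did not pass with all libraries. The share of counts in the 20 most abundant unigenes changed by -7.76 points in America and -8.19 points in Iceland, a difference of -0.43 points (two-sided exact permutation of origin within treatment, p = 0.86, n = 3 per group). The number of unigenes with at least 1 count at an equal depth of 9768347 counts rose from 43124 ± 1352 to 46326 ± 285 in America and from 43090 ± 1111 to 48374 ± 322 in Iceland (SD, n = 3). The rise was larger in Iceland by 2083 unigenes (exact permutation test, two-sided, p = 0.14, where 0.005 is the smallest p that 400 relabellings can give). Without untreated America replicate 1 the difference was 2832 (exact permutation test, p = 0.02). No refit without any other library of the comparison passed in the same test. Their p ranged from 0.07 without untreated Iceland replicate 3 (difference 2577) to 0.305 without untreated Iceland replicate 2 (difference 1482). The value of 0.02 is thus the lowest of these refits and is not read as a separate result.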

How the data were processed

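Leaf RNA of 12 libraries, in 4 groups of 3, was compared, within a fit to all 18 libraries of the series. Per the file headers, the authors gave every library both a count and an FPKM column. Deposited counts are whole, and no source states whether they were rounded. The deposited FPKM values are those counts scaled by length and library size and served only to derive lengths. RSEM 1.3.1, cutadapt 1.18 and bcl2fastq 2.0.1 appear, with no role, in the submitters' processing notes. Not given in the sources used here are assembler, assembly, annotation and strand. Near-identical unigenes may share reads.

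Counts of 81470 unigenes (5703 with 0 counts throughout) were filtered with filterByExpr and scaled by TMM in R 4.3.3. The 30895 unigenes left were fitted with edgeR 4.0.16 (quasi-likelihood), using 1 mean for each of 6 groups, which left 12 residual degrees of freedom. Benjamini-Hochberg adjustment ran over all tested unigenes of a comparison, at 0.05. Each standard error (SE) of a log2 value was its size divided by the square root of the quasi-likelihood F. For the 72 h difference it ran from 0.0147 to 114269 over all tested unigenes, so its extremes carry no meaning. Log2 CPM used a prior count of 2. The script was tested on simulated data. Alternatives were DESeq2 size factors, no filter, a fit to 4 groups, the Wald test of DESeq2 1.42.0, limma-voom from limma 3.58.1, a 2-fold minimum, a robust fit, a replicate block and leaving out each of 12 libraries, with the filter applied anew. Those for the 24 h comparisons, for where the origins differed and for the shared 24 h responders were added after seeing the data.

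Unigenes were named by rule from the 172 called that reached a mean of 5 CPM in a group: those called in the most refits, ties by smallest p, 1 per direction in each of 4 response classes. The members and lists were chosen with earlier results of these data known. Chi-square per unigene between replicates of the 4 compared groups ranged from 5.99 to 68.2, so none was a duplicate of another in its group. The check did not cover the 24 h libraries or pairs across groups.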

Additional observations from a re-analysis of the deposited data

Results flagged for a closer look

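The origins' responses to 72 h PEG were set against each other directly in 1 test, and 214 unigenes differed (edgeR, adjusted p under 0.05), and the 8 named unigenes are among them. On the log2 scale the Iceland response exceeded the America response by 5.62 in Unigene0002739, 3.14 in Unigene0015286, 3.33 in Unigene0065711 and 1.08 in Unigene0032657. It was below the America response, with differences of -1.75 in Unigene0050901, -4.20 in Unigene0003190, -2.42 in Unigene0073070 and -1.69 in Unigene0077436. Of these 8, Unigene0002739, Unigene0015286, Unigene0050901 and Unigene0003190 were called in each of the 12 refits that left out 1 library. The rule that named the 8 ranks unigenes by the refits passed, so this is not a separate result.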

How the results depend on the processing

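The number of unigenes with different 72 h responses, 214 (128 more positive and 86 more negative in Iceland), was 197 (116 and 81) with a robust fit. With DESeq2 size factors it was 218 (148 and 70), of which 198 were among the 214, so the balance of directions moved with the scaling. It was 746 (438 more positive and 308 more negative in Iceland) with no filter, 15 (8 and 7) by limma-voom, 1382 (885 and 497) by the DESeq2 Wald test and 41 (21 and 20) in the fit to 4 groups. By class (opposite, Iceland alone, America alone, both the same way, neither), the counts were 130, 426, 119, 69 and 2 with no filter and 158, 830, 231, 159 and 4 by the Wald test. They were 4, 8, 2, 1 and 0 by limma-voom and 18, 11, 7, 5 and 0 in the fit to 4 groups. The difference of 24 h responses had 585, 69 and 1481 calls with no filter, by limma-voom and by the Wald test, and the difference in the change from 24 h to 72 h had 208, 8 and 491. The Wald test called 2766 between untreated origins, and a 2-fold minimum left 7459 changed in America at 72 h. The difference in the share of the 20 most abundant unigenes turned to 0.106 points with 50 unigenes, and to 0.309, 0.392 and 0.810 points without America 72 h replicate 3, untreated Iceland replicate 1 and untreated Iceland replicate 2. The difference of changes in the unigenes that responded in both origins at 24 h turned to -0.0143 and -0.0353 without untreated Iceland replicates 1 and 2, and rose from 0.15 to 0.50 without replicate 3. The cause of these shifts was not tested.

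With a replicate block, 116 unigenes passed (72 and 44), in classes of 30, 54, 16 and 16, and 148 for the 24 h difference. The numbers showed no strong pairing of the libraries. Over 18 pairs of equal number the correlation of deviations was -0.146 to 0.144, and 2 were over 0.1. In 8 of the 18 the equal number gave the highest correlation. A weak effect shared by libraries of equal number is not excluded by these values.

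Leaving out 1 library at a time gave 5 to 737 calls, 3 to 408 more positive and 2 to 329 more negative. The classes ranged from 2 to 171 (opposite), 1 to 353 (Iceland alone), 1 to 69 (America alone) and 0 to 160 (both the same way). The ranges were 29 to 952 for the 24 h difference, 0 to 66 for the late change, 641 to 2580 between untreated origins, 1595 to 5443 between origins at 72 h and 3721 to 5416 at 24 h. None of these refits left out a 24 h library. The ranges for the 24 h difference, the late change and the origins at 24 h thus do not show dependence on those libraries. The 72 h responses ranged from 8817 to 12122 calls in America and 11402 to 15610 in Iceland. The share difference ranged from -2.48 to 0.810 points and the difference in unigenes detected from 1482 to 2832. A total of 3 counts is 0.222 to 0.351 CPM in a library, so low unigenes carry the least precision. Unigene0073070 and Unigene0077436 missed the threshold in the fit to 4 groups, with log2 differences of -2.40 and -1.67.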

Other observations

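The size of the gap between origins was tallied over all unigenes called different between them, which at 72 h include 147 of the 214. After 72 h, those higher in Iceland numbered 332, 232, 637, 755, 229 and 306 in steps of 1 on the log2 scale, from 0 to 1 up to 5 and more, so that more lay between 2 and 4 than below 2. Those lower in Iceland numbered 482, 559, 242, 123, 62 and 124 in the same steps and were most frequent below 2. The 24 h libraries gave 435, 363, 594, 655, 175 and 234 higher and 577, 533, 259, 124, 118 and 231 lower in Iceland. In untreated leaves the counts were 175, 229, 138, 77, 62 and 167 higher and 169, 223, 117, 59, 47 and 108 lower, without a second peak between 2 and 4. The threshold shapes these counts, as small gaps are not called where precision is low. It was passed by 1571 unigenes untreated and 4083 after 72 h, so the shapes are descriptions.

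The 97 unigenes that were more positive in Iceland and differed only after 72 h also varied together within groups. Across the 18 libraries, the deviation of a unigene from its group means had a median correlation of 0.66 with the median deviation of the 97, with quartiles of 0.39 and 0.80. The corresponding medians were 0.13 in the 36 more negative unigenes that differed only after 72 h, and 0.12 and 0.15 in the 24 and 42 that differed only untreated. The libraries share depth and scaling, each unigene is part of its own set's median, and the sets differ in size, so these are descriptions. The shared deviation was largest in untreated America, at -0.66, 0.60 and 0.11 in replicates 1, 2 and 3, and in Iceland after 72 h, at -0.45, 0.45 and 0.00.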
